A study of Mus musculus with 24 samples.

Results

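Clock output genes are genes through which the circadian oscillator reaches the physiology of a tissue. The 10 described here, Dbp, Tef, Hlf, Nfil3, Ciart, Bhlhe40, Bhlhe41, Nampt, Rgs16 and Usp2, were taken by gene symbol from a count table of 22429 genes in mouse liver. All 10 were found and all 10 were among the 12690 genes that passed the filter on low counts. Polyadenylated RNA of liver of male F1 hybrid C57BL6J/FVBN mice was sequenced in 24 libraries, 4 per group. The Ercc1 d/- mouse carries a truncated and a null allele of Ercc1, a gene of DNA excision repair, in all its cells and ages prematurely. There were 3 mutant groups, namely Ercc1 d/- mice on 30% dietary restriction (DR) at 16 weeks, Ercc1 d/- mice fed freely (AL, ad libitum) at 16 weeks, and Ercc1 d/- AL mice at 7 weeks. The other 3 groups had the +/+ genotype and are called wild type, with 30% DR at 16 weeks, AL at 104 weeks and AL at 16 weeks. Daily food was 1.6 g in restricted and 2.3 g in freely fed mutants, against 2.1 g in restricted and 3.0 g in freely fed wild-type mice. Restriction started with 10% at 7 weeks of age and stood at 30% from week 9. Food came shortly before dark, at zeitgeber time (ZT) 12 of a cycle of 12 h light and 12 h dark, and was withheld on the last day until the liver had been taken. The hour of liver collection is not given in the sources used here, so each level below is a level at an unstated time of day, and neither phase nor amplitude of a rhythm can be read from it. Nor is it stated that the hour was the same in all 6 groups, so for these time-of-day genes the effect of a group and that of a different hour cannot be told apart.

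In the mammalian clock, the activators CLOCK and BMAL1 (the product of Arntl) bind E-box sequences and switch on the repressors Per, Cry and Nr1d1 (Rev-erb alpha), along with Dbp. Rev-erb receptors repress through other response elements and so help to set the rhythm of Arntl and Nfil3. DBP, TEF and HLF are related leucine zipper activators (the PAR bZIP family) that bind D-box sequences, and NFIL3 represses through the same sequences. In liver these factors pass time of day on to genes of drug and cholesterol metabolism, and meal times can set the liver clock apart from the clock in the brain. Of the other members, Ciart, Bhlhe40 and Bhlhe41 encode repressors of CLOCK and BMAL1, Nampt encodes the rate-limiting enzyme of NAD salvage, Rgs16 a protein that shortens G protein signalling, and Usp2 a deubiquitinating enzyme.

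Total counts ran from 13269792 to 20624803 per library, and levels are CPM, counts as a share of a library size scaled by TMM, the trimmed mean method of edgeR. Samples of a group are numbered in the labels without a statement that the numbers mark different animals, so a p-value here reflects only how far these samples spread, which may be technical. Summed hepatocyte markers (7 genes, Alb among them) lay between 79800 and 162000 CPM in every library, as the label of liver requires. Ercc1 itself was low, at 1.08 to 2.33 CPM in the 12 mutant libraries and 2.06 to 4.46 CPM in the 12 wild-type libraries, and gene counts include reads of the mutant alleles. Library 2 of the restricted wild type had the highest CPM of its group in 8 of 10 members, library 4 of the wild type at 16 weeks the lowest in 8, and library 1 of the restricted mutant the highest in 6. Library 4 at 104 weeks was also the highest in 6 and library 4 of the restricted wild type the lowest in 6. Several results that rest on these libraries are given with and without them. Differences were assessed by the quasi-likelihood F test of edgeR in 1 fit of all 24 libraries and called at a Benjamini-Hochberg adjusted p under 0.05 over all 12690 genes. By that rule 9 of 10 members differed among the 6 groups, where 47.8% of all genes did.

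Promoters are printed to set the regulatory sequence of these genes side by side. They are those of the 3 members that hold the E-box CACGTG, of the 1 that holds the Rev-erb half-site TAGGTCA, and of Dbp, which varied most between groups. Each runs 5′ to 3′ from 250 bases before to 50 bases after a RefSeq start on GRCm38.p6, with motif matches in capitals. The Ciart promoter (chr3:95882179-95882478, minus strand) holds 3 E-boxes, whose first bases are at -116, -58 and -44 from the start. The Tef promoter shown (chr15:81811164-81811463, plus strand) has 1, and so does a second Tef start. Bhlhe41 (chr6:145865371-145865670, minus strand) has 1 E-box, from -153 to -148. Nfil3 (chr13:52980990-52981289, minus strand) holds the half-site on the other strand, read as TGACCTA. Dbp (chr7:45704997-45705296, plus strand) has none of the motifs in this window.
Ciart: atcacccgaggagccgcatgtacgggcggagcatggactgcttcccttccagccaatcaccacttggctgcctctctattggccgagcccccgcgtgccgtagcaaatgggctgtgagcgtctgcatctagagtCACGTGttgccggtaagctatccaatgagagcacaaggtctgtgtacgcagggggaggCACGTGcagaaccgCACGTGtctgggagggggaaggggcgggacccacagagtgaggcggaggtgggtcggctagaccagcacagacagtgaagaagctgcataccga
Tef: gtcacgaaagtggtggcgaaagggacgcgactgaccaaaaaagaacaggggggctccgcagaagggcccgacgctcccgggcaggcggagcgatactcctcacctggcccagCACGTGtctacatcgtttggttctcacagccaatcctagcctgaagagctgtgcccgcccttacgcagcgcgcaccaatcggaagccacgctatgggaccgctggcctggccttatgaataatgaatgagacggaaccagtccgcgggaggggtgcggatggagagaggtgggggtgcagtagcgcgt
Bhlhe41: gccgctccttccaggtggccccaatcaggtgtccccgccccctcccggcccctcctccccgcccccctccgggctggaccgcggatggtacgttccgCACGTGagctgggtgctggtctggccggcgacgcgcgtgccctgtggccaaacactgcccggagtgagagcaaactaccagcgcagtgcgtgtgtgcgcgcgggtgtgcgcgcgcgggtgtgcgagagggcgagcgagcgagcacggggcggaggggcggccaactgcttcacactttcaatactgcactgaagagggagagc
Nfil3: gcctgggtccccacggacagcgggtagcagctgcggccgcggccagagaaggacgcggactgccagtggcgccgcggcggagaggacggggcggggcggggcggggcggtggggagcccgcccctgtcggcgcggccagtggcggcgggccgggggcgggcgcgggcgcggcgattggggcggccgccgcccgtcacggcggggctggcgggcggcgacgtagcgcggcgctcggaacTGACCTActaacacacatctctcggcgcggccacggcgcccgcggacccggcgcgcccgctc
Dbp: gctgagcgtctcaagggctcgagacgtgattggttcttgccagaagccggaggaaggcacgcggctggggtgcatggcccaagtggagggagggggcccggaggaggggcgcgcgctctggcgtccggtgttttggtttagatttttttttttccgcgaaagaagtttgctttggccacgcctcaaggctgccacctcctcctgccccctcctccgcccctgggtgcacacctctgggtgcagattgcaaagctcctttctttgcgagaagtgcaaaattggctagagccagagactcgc
Both strands were searched, and no motif overlapped another. Of 32851 RefSeq promoters of the same 300 bases, 7.15% hold the E-box, 2.61% the half-site, 0.938% the D-box TTATGTAA and 0.119% its variant TTACGTAA. Of the 10 members, 9 had a promoter in the table, all but Bhlhe40. Counted over the 9 members with a promoter to search, 3 had an E-box, 1 the half-site and 0 either D-box. A match describes letters in this window and no match says nothing of a factor.

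**Figure D1:**
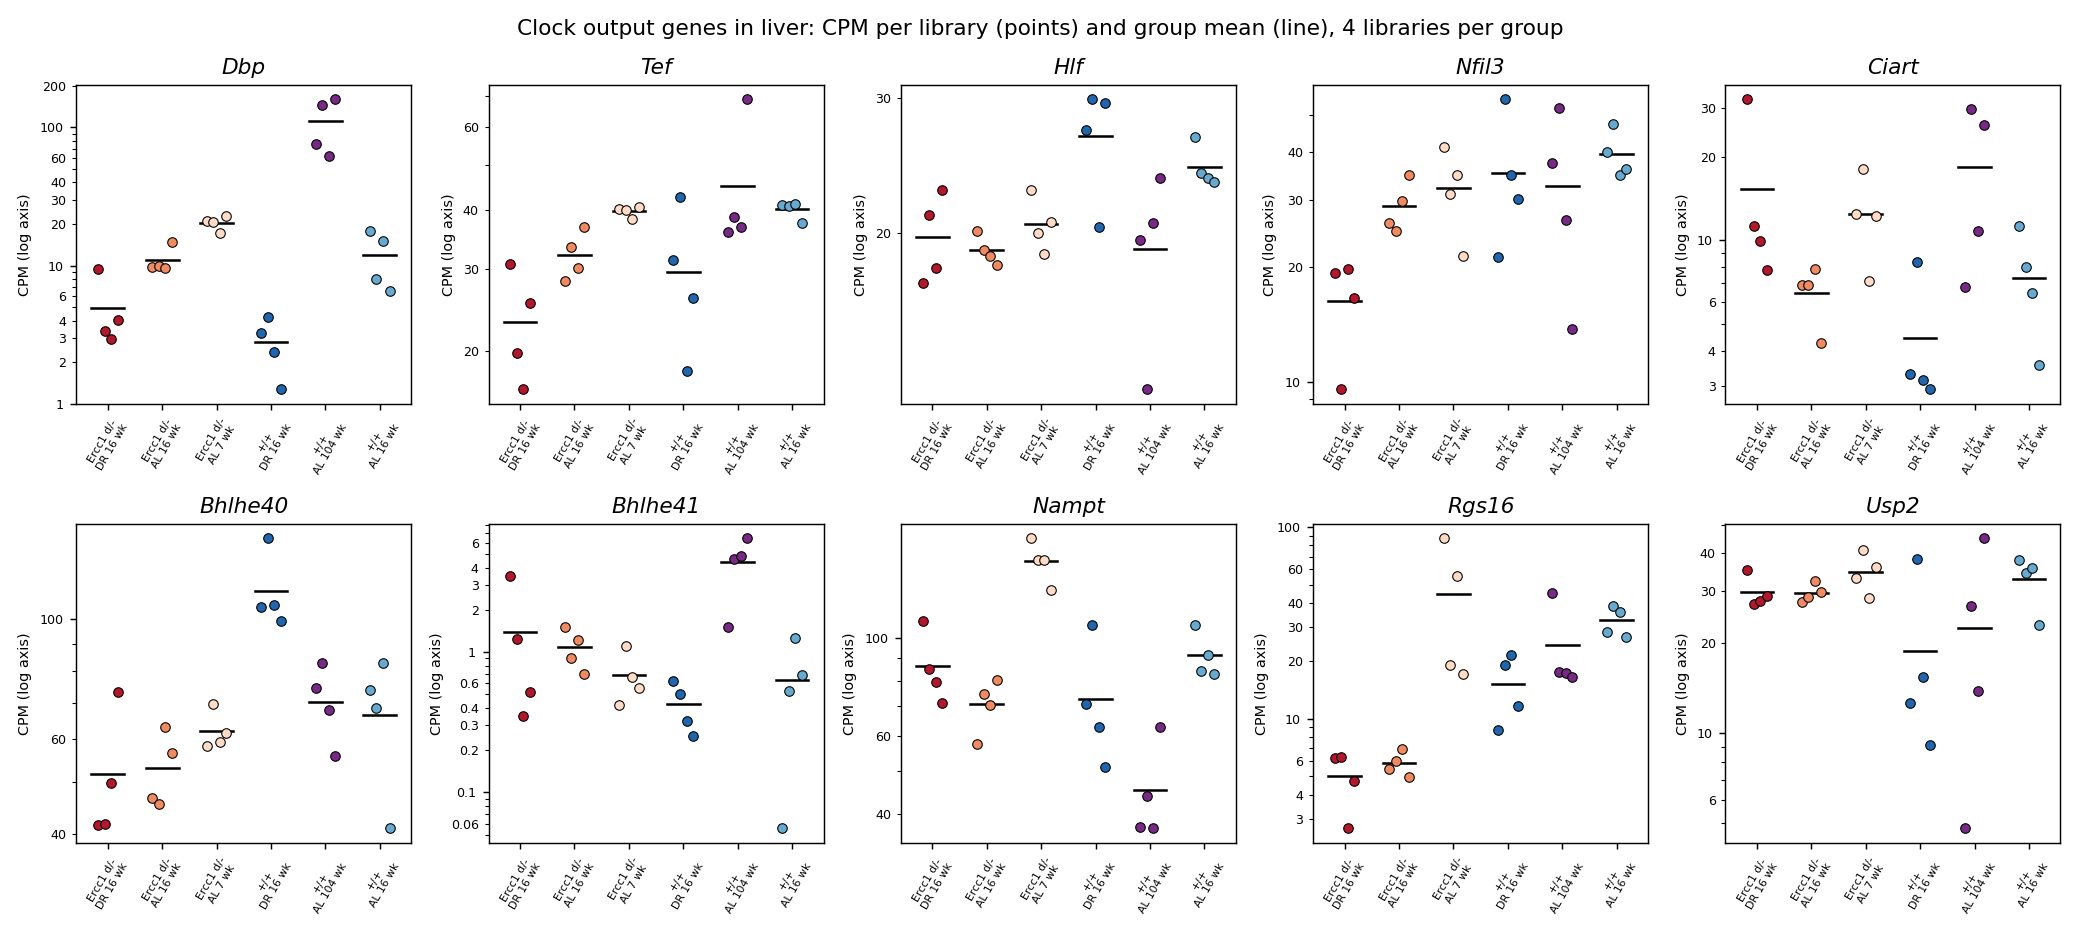
CPM of the 10 clock output genes on log axes, with 1 point per library and a line at each group mean (4 libraries per group). Dbp at 104 weeks stands apart between 61.9 and 159 CPM, and Rgs16 is at most 6.91 CPM in all 8 mutant libraries of 16 weeks.

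Dbp had the widest range of the members, with a highest group mean 39.6 times the lowest. In mutants it stood at 9.45, 3.38, 2.92 and 4.02 CPM under restriction, at 9.75, 9.91, 9.61 and 14.7 CPM on free feeding at 16 weeks and at 21.1, 20.7, 17.2 and 22.9 CPM at 7 weeks. In wild-type livers it stood at 3.27, 4.23, 2.37 and 1.27 CPM under restriction, at 75.8, 145, 61.9 and 159 CPM at 104 weeks and at 17.9, 8.05, 15.1 and 6.58 CPM at 16 weeks. The aged group lay above every other library, and both restricted groups lay below every freely fed mutant library. Dbp averaged 110 ± 48.5 CPM at 104 weeks and 11.9 ± 5.45 CPM at 16 weeks in the wild type (SD, n = 4 each), a log2 fold change of 3.21 ± 0.39 (SE, edgeR adjusted p = 1.27e-05). It fell to 2.78 ± 1.26 CPM in restricted wild-type livers, against 11.9 ± 5.45 CPM on free feeding (a log2 change of -2.10 ± 0.41, edgeR adjusted p = 0.00175). In restricted mutants Dbp had 4.94 ± 3.04 CPM, against 11 ± 2.49 CPM in freely fed mutants, without overlap, and did not pass the threshold (a log2 change of -1.15 ± 0.39, edgeR adjusted p = 0.0624). That result rests on 1 library, since without library 1 of the restricted mutant the log2 fold change was -1.68 with an edgeR adjusted p of 0.00787. Between genotypes Dbp was not called, at -0.12 ± 0.38 on free feeding and 0.83 ± 0.42 under restriction (log2, edgeR adjusted p = 0.892 and 0.186).

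Dbp (ENSMUSG00000059824.12, chromosome 7, 45705088 to 45710203, plus strand, GRCm38) shares exonic bases with Sphk2, a sphingosine kinase gene on the opposite strand, and whether counting used strand is not given in the sources used here. Sphk2, named for this overlap and after its values were seen, moved against Dbp at 104 weeks, with 29.5 ± 5.23 CPM, against 42.9 ± 3.87 CPM at 16 weeks (a log2 change of -0.54 ± 0.17, edgeR adjusted p = 0.0374). Under restriction in the wild type it was lower, as Dbp was, at 30.3 ± 4.14 CPM (a log2 change of -0.50 ± 0.16, edgeR adjusted p = 0.0443). How many reads the pair shared was not tested. Exons of Tef, Bhlhe40, Bhlhe41, Rgs16 and Usp2 also overlap annotated genes on the opposite strand. Of these only Gm49380, which overlaps Usp2, has a row in the table, with 0 counts in all libraries.

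Tef and Hlf, the other PAR bZIP members, varied far less. Group means of Tef ran from 23.1 CPM in restricted mutants to 45 CPM at 104 weeks, a ratio of 1.95, and those of Hlf from 19 CPM in freely fed mutants to 26.8 CPM in the restricted wild type, a ratio of 1.41. Tef (ENSMUSG00000022389.15, chromosome 15, 81802421 to 81826863, plus strand) had 30.7, 19.8, 16.6 and 25.3 CPM in restricted mutants, 28.3, 33.4, 30.1 and 36.8 CPM in freely fed mutants at 16 weeks and 38.3 to 40.7 CPM at 7 weeks. In the wild type it had 31.3, 42.7, 18.2 and 26 CPM under restriction, 35.9, 38.7, 36.8 and 68.8 CPM at 104 weeks and 41.1, 40.8, 41.3 and 37.5 CPM at 16 weeks. The 7-week mutants and the 16-week wild type were tight, and the aged mean was carried by library 4. In the 6 comparisons of groups Tef was called in 0 by edgeR and 0 by DESeq2, with 1 at an unadjusted p under 0.05 and log2 fold changes between -0.48 and 0.17. Over all 6 groups at once Tef did differ (edgeR adjusted p = 0.00727). Without library 2 of the restricted wild type, Tef was called lower under restriction in the wild type, at -0.66 (log2, edgeR adjusted p = 0.0381), in place of -0.44 ± 0.22 (edgeR adjusted p = 0.176).

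Hlf (ENSMUSG00000003949.16, chromosome 11, 90336536 to 90390895, minus strand) had 17.2, 21.1, 18 and 22.8 CPM in restricted mutants, against 27.3, 29.9, 20.4 and 29.6 CPM in the restricted wild type, with only library 3 of the wild type inside the mutant range. Hlf was lower, at -0.44 ± 0.15 on the log2 scale (edgeR adjusted p = 0.0458), a call close to the threshold that held in 4 of 14 other settings. It was lost without library 1, 2 or 4 of the wild type or library 1, 2 or 3 of the mutant, with edgeR adjusted p up to 0.239 over all settings. Freely fed, Hlf had 20.1, 19, 18.7 and 18.2 CPM in mutants and 26.7, 24, 23.6 and 23.3 CPM in the wild type at 16 weeks. Those 2 groups did not overlap, though the difference was not called (a log2 change of -0.36 ± 0.15, edgeR adjusted p = 0.145). At 104 weeks Hlf had 19.6, 12.5, 20.6 and 23.6 CPM, and in 7-week mutants 22.8, 20.0, 18.8 and 20.7 CPM.

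Nfil3 (ENSMUSG00000056749.7, chromosome 13, 52967209 to 52981073, minus strand), the repressor that works on the same sites, was lowest in the restricted mutant, at 19.3, 9.54, 19.7 and 16.6 CPM. It had 26, 24.8, 29.8 and 34.9 CPM in freely fed mutants at 16 weeks and 41.2, 31.1, 34.9 and 21.3 CPM at 7 weeks. The wild type had 21.2, 54.9, 34.8 and 30.1 CPM under restriction, 37.5, 52.2, 26.5 and 13.7 CPM at 104 weeks and 39.9, 47.3, 34.8 and 36.1 CPM at 16 weeks. All 4 restricted mutants lay below all restricted and all 16-week wild-type libraries, while the aged libraries covered nearly the whole range. Nfil3 averaged 16.3 ± 4.68 CPM in restricted mutants and 35.2 ± 14.3 CPM in the restricted wild type (SD, n = 4 each; a log2 change of -1.11 ± 0.32, edgeR adjusted p = 0.0178). The call was lost without library 2 of the wild type (edgeR adjusted p = 0.0827) or without library 2 of the mutant (edgeR adjusted p = 0.0606). Against freely fed mutants, at 28.9 ± 4.54 CPM, the restricted mutants did not overlap and did not pass (a log2 change of -0.83 ± 0.32, edgeR adjusted p = 0.0995).

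Among the repressors of CLOCK and BMAL1, Ciart (ENSMUSG00000038550.10, chromosome 3, 95878503 to 95882251, minus strand) had 32.1, 11.3, 9.97 and 7.84 CPM in restricted mutants, against 3.32, 8.38, 3.15 and 2.91 CPM in the restricted wild type. Mutant library 1 and wild-type library 2 were each far above the rest of their group, and the groups overlapped only through that wild-type library. Ciart was higher in the restricted mutant by 1.80 ± 0.51 on the log2 scale (edgeR adjusted p = 0.0171). Without mutant library 1 the log2 fold change was 1.14 and not called (edgeR adjusted p = 0.101), and it was also lost without wild-type library 4 (edgeR adjusted p = 0.0541). Freely fed mutants had 6.92, 6.89, 7.9 and 4.26 CPM at 16 weeks and 12.4, 18, 7.12 and 12.2 CPM at 7 weeks. Freely fed wild-type livers had 6.81, 29.6, 10.8 and 26 CPM at 104 weeks and 11.3, 8.05, 6.46 and 3.56 CPM at 16 weeks. The aged libraries fell into a low pair and a high pair, and the rise with age did not pass (a log2 change of 1.31 ± 0.49, edgeR adjusted p = 0.0982).

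Bhlhe40 (ENSMUSG00000030103.11, chromosome 6, 108660629 to 108666925, plus strand) was highest in the restricted wild type, at 105, 141, 106 and 99.1 CPM, above every library of the other groups. It had 41.5, 41.8, 49.7 and 73.3 CPM in restricted mutants, 46.6, 45.5, 63.1 and 56.5 CPM in freely fed mutants at 16 weeks and 58.1, 69.7, 59.3 and 61.5 CPM at 7 weeks. Freely fed wild-type livers had 74.5, 83, 67.7 and 55.7 CPM at 104 weeks and 73.8, 68.4, 82.9 and 41 CPM at 16 weeks. Restriction went with 113 ± 19 CPM, against 66.6 ± 18 CPM on free feeding in the wild type (a log2 change of 0.76 ± 0.19, edgeR adjusted p = 0.0101). In mutants the same comparison gave 51.6 ± 15 CPM, against 52.9 ± 8.41 CPM (a log2 change of -0.04 ± 0.19, 95% interval -0.44 to 0.37, edgeR adjusted p = 0.935). The difference between those 2 effects, -0.80 ± 0.27 on the log2 scale, was not called (edgeR adjusted p = 0.162). Under restriction Bhlhe40 was lower in the mutant, at -1.13 ± 0.19 (log2, edgeR adjusted p = 0.000213), a call that held in all 14 other settings run.

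Bhlhe41 (ENSMUSG00000030256.11, chromosome 6, 145858243 to 145865558, minus strand) was near the lower end of detection, with 1 to 89 counts per library. At 104 weeks it had 1.5, 4.58, 4.84 and 6.47 CPM, against 0.0556, 0.532, 1.26 and 0.685 CPM at 16 weeks in the wild type, without overlap. The log2 fold change was 2.78 ± 0.61 (edgeR adjusted p = 0.00429), and 3.39 without library 3 of the 16-week group (edgeR adjusted p = 0.00402). The restricted mutant had 3.5, 1.23, 0.35 and 0.518 CPM, against 0.617, 0.501, 0.321 and 0.253 CPM in the restricted wild type, and did not pass (a log2 change of 1.69 ± 0.66, edgeR adjusted p = 0.0749). Without library 1 of the restricted mutant, Bhlhe41 was at 0.71 in that comparison (log2, edgeR adjusted p = 0.485). In freely fed mutants it had 0.699 to 1.51 CPM at 16 weeks and 0.419 to 1.11 CPM at 7 weeks.

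Nampt (ENSMUSG00000020572.8, chromosome 12, 32819545 to 32853349, plus strand) was lower at the later age in both genotypes. Freely fed mutants had 57.6, 74.8, 70.4 and 80.4 CPM at 16 weeks, against 168, 150, 150 and 128 CPM at 7 weeks. Wild-type livers had 37.4, 43.9, 37.1 and 62.8 CPM at 104 weeks, against 107, 84.3, 91.3 and 82.9 CPM at 16 weeks. Neither pair of groups overlapped, and the 7-week mutants lay above all other libraries. The log2 fold change was -1.07 ± 0.19 in mutants (edgeR adjusted p = 0.00508) and -1.01 ± 0.19 in the wild type (edgeR adjusted p = 0.00119), though the ages compared differ between genotypes. The difference between these effects was -0.06 ± 0.27, with a 95% interval of -0.63 to 0.51 (edgeR adjusted p = 0.942). Restricted mutants had 109, 85.2, 79.3 and 71.1 CPM and the restricted wild type 70.7, 107, 62.7 and 50.9 CPM, neither called against free feeding. Without library 2 of the restricted wild type, Nampt was called lower under restriction, at -0.57 (log2, edgeR adjusted p = 0.0314), in place of -0.33 ± 0.19 (edgeR adjusted p = 0.269).

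Rgs16 (ENSMUSG00000026475.7, chromosome 1, 153740349 to 153745468, plus strand) separated the mutants of 16 weeks from every other library. It had 6.24, 6.32, 2.68 and 4.73 CPM in restricted mutants, 5.47, 5.98, 6.91 and 4.96 CPM in freely fed mutants at 16 weeks, and 87.3, 19.1, 55.6 and 17 CPM in 7-week mutants. In the wild type it had 8.73, 19, 21.4 and 11.6 CPM under restriction, 45.4, 17.4, 17.2 and 16.5 CPM at 104 weeks and 28.4, 38.8, 36.1 and 26.8 CPM at 16 weeks. The lowest library outside the 16-week mutants, at 8.73 CPM, lay above the highest of the mutants, at 6.91 CPM, while the 7-week mutants spread over a high pair and a low pair. On free feeding Rgs16 averaged 5.83 ± 0.832 CPM in mutants and 32.5 ± 5.86 CPM in the wild type at 16 weeks (a log2 change of -2.48 ± 0.47, edgeR adjusted p = 0.00137). Against 7-week mutants, at 44.8 ± 33.4 CPM, the 16-week mutants were lower, at -2.94 ± 0.48 (log2, edgeR adjusted p = 0.00346). Under restriction the mutant had 4.99 ± 1.71 CPM and the wild type 15.2 ± 6 CPM (a log2 change of -1.59 ± 0.47, edgeR adjusted p = 0.021). This last call was lost without library 2 or 3 of the wild type, or library 3 or 4 of the mutant, with edgeR adjusted p up to 0.0713 over all settings. Restricted and freely fed wild-type livers did not overlap either, and that difference was not called (a log2 change of -1.10 ± 0.44, edgeR adjusted p = 0.101).

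Usp2 (ENSMUSG00000032010.15, chromosome 9, 44067021 to 44095627, plus strand) was the single member not called over the 6 groups (edgeR adjusted p = 0.427, and 0.0596 to 0.655 when 1 library was left out). It had 27.2 to 35.1 CPM in restricted mutants, 27.6 to 32.3 CPM in freely fed mutants at 16 weeks and 28.4 to 41.1 CPM at 7 weeks. The wild type spread more, with 12.6, 38.2, 15.5 and 9.18 CPM under restriction, 4.82, 26.7, 13.9 and 45 CPM at 104 weeks and 38, 34.3, 35.8 and 23 CPM at 16 weeks. Without library 2 of the restricted wild type, Usp2 was called lower under restriction, at -1.40 (log2, edgeR adjusted p = 0.0258), in place of -0.80 ± 0.44 (edgeR adjusted p = 0.235). Without the same library it was also called higher in restricted mutants than in the restricted wild type, at 1.26 (edgeR adjusted p = 0.0405), in place of 0.66 ± 0.44 (edgeR adjusted p = 0.317). In bulk liver, fewer cells of a type and less RNA per cell cannot be told apart for any member.

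**Figure D2:**
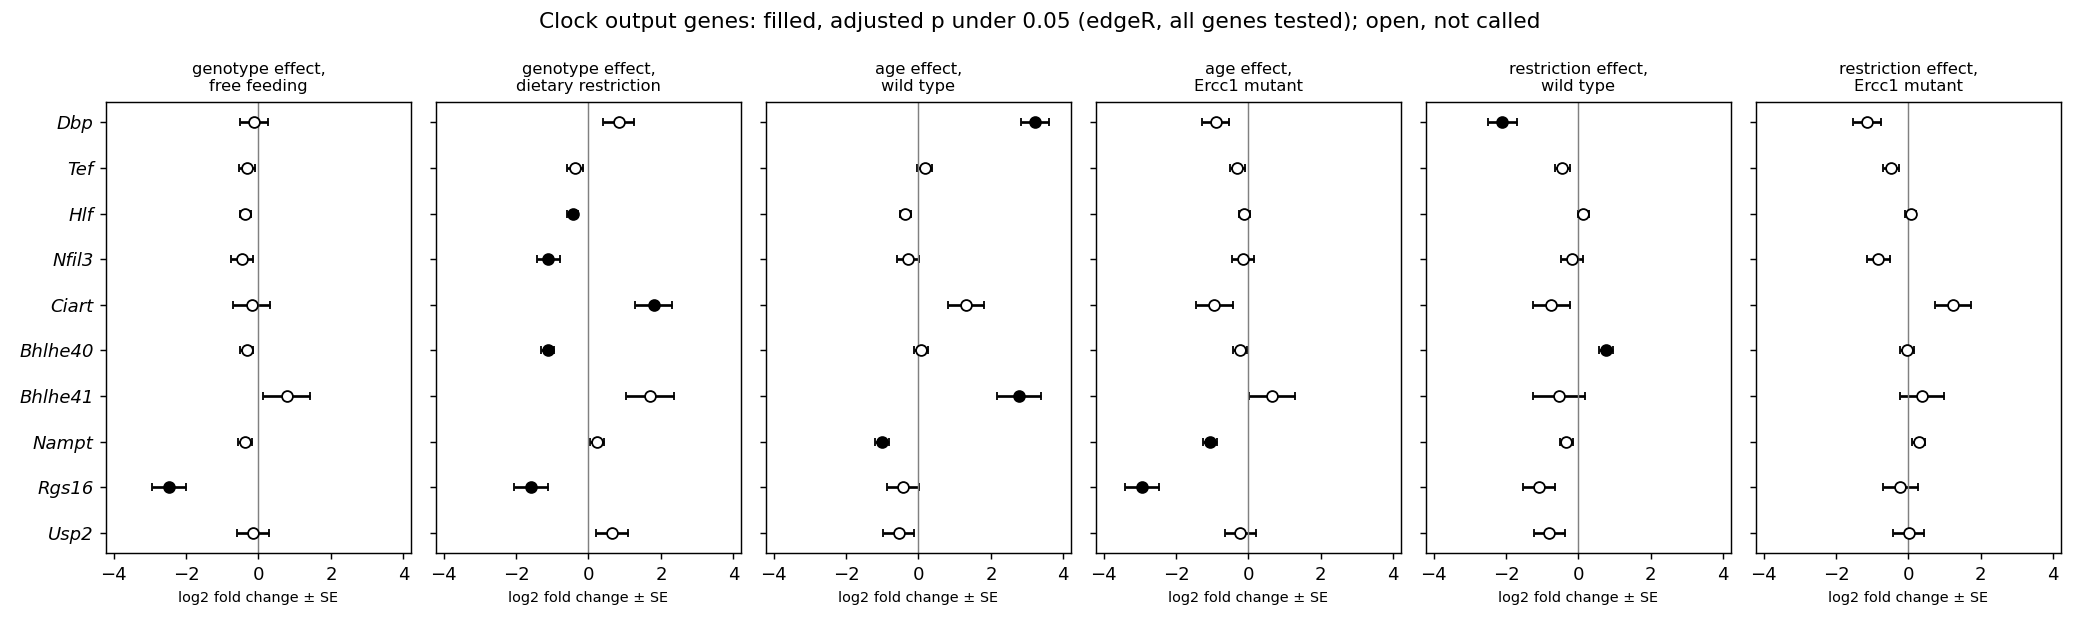
Log2 fold change of each member in the 6 comparisons of groups, with bars of 1 SE, and filled marks for an edgeR adjusted p under 0.05. The largest called changes are those of Dbp with age in the wild type, at 3.21, and of Rgs16 with age in the mutant, at -2.94.

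The comparisons below share groups (the freely fed wild type of 16 weeks stands in 3 of them, and each other 16-week group in at least 2), so their values are not independent of each other.

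At 16 weeks on free feeding, Ercc1 d/- and wild-type livers differed in 1 of 10 members, Rgs16, which was lower, beside 9.94% of all genes tested (5.1% higher and 4.85% lower). CPM did not overlap for 4 members, Tef, Hlf, Nampt and Rgs16, all lower in the mutant, where 22.4% of all genes did not overlap. The median log2 fold change of members was -0.32, and 0.02 over all genes. Of 17 core clock genes 1 was called, the kinase gene Csnk1e, with a log2 fold change of 0.62 ± 0.19 (edgeR adjusted p = 0.0326). Of 13 genes reported as targets of DBP, TEF and HLF, 2 rose and 3 fell. Those that rose were Cyp2a4 and Cyp2a5, named after their values were seen, which can share reads and may not be separate calls. Cyp2b10, a drug-metabolising enzyme that can share reads with close copies, had 0.489 ± 0.217 CPM in mutants and 23.8 ± 8.03 CPM in the wild type (a log2 change of -5.58 ± 0.58, edgeR adjusted p = 1.64e-06). Ces2a, a carboxylesterase gene, was lower, at -0.89 ± 0.16 (log2, edgeR adjusted p = 0.000428). Of 14 tested genes of NAD salvage and use, edgeR called 0 and DESeq2 called 0, with 3 at an unadjusted p under 0.05. Of 15 genes that follow body temperature, feeding or glucocorticoids (the systemic list), 1 rose, Rbm3, a cold-inducible RNA-binding protein gene (0.83 ± 0.17, edgeR adjusted p = 0.00162), and 1 fell. Of 20 other genes rhythmic in liver, 1 rose and 2 fell, with Mfsd2a, a lysophospholipid carrier, at -2.06 ± 0.38 (edgeR adjusted p = 0.00108) and the zinc finger factor Klf10 at -1 ± 0.22 (edgeR adjusted p = 0.00332). Macrophage markers moved beside these results, with 5 of 9 higher, summed levels of 136 to 279 CPM in mutants and 95.6 to 139 CPM in the wild type, and none at 0. Erythroid markers were lower in 4 of 5 tested, at 356 to 732 CPM summed over 6 genes in mutants and 1260 to 2290 CPM in the wild type. Also higher were 1 of 3 tested neutrophil markers, 1 of 2 tested B and plasma cell markers and the 1 tested T and NK cell marker. Of 7 hepatocyte markers 1 was lower. The part of these markers in the members' values was not tested.

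Under restriction the genotypes differed in 5 of 10 members, beside 18.3% of all genes tested. Ciart was higher, and Hlf, Nfil3, Bhlhe40 and Rgs16 were lower in Ercc1 d/- livers, with 9.58% of all genes higher and 8.7% lower. CPM did not overlap for 3 members, Nfil3, Bhlhe40 and Rgs16, where 15.8% of all genes did not overlap. Without both library 2 of the restricted wild type and library 1 of the restricted mutant, an alternative chosen after seeing the data, 2 members were called. Of 17 core clock genes 4 fell and 0 rose, among them Arntl (-0.87 ± 0.23, edgeR adjusted p = 0.0104) and the repressor genes Cry1 (-0.59 ± 0.17, edgeR adjusted p = 0.0191) and Per2 (-0.61 ± 0.20, edgeR adjusted p = 0.0335). Of the 13 PAR bZIP targets 4 rose and 2 fell, led by Ces2a, lower, at -1.06 ± 0.16 (edgeR adjusted p = 4.5e-05), and Ces2e, higher by 0.77 ± 0.12 (edgeR adjusted p = 8.5e-05). Those that rose included Gsta1 and Gsta2, named after their values were seen, at 0.91 ± 0.27 and 0.89 ± 0.27. This pair can share reads, so they may not be separate calls. Of the NAD genes 3 rose and 1 fell, with Qprt, of NAD synthesis from tryptophan, at 0.73 ± 0.19 (edgeR adjusted p = 0.00962) and the mitochondrial NAD kinase gene Nadk2 at -0.58 ± 0.16 (edgeR adjusted p = 0.0104). The systemic list had 2 higher and 2 lower, Rbm3 at 0.88 ± 0.16 (edgeR adjusted p = 0.000517) and the chaperone gene Hsp90aa1 at -1 ± 0.25 (edgeR adjusted p = 0.00625). Other rhythmic genes rose in 3 and fell in 2 of 20 cases, with Klf10 at -1.44 ± 0.21 (edgeR adjusted p = 4.2e-05) and the liver glycogen synthase gene Gys2 at 0.87 ± 0.19 (edgeR adjusted p = 0.00278). All 9 macrophage markers were called higher, with summed levels of 208 to 297 CPM in mutants and 73.3 to 131 CPM in the wild type and none at 0. Of 7 hepatocyte markers 1 was higher and 3 were lower, with summed levels of 89200 to 118000 CPM in mutants and 122000 to 162000 CPM in the wild type. Neutrophil markers had 2 of 3 tested higher, with overlapping sums of 5.02 to 7.97 CPM in mutants and 2.51 to 7.73 CPM in the wild type. The part of these markers in the members' results was not tested.

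With age in the wild type (104 against 16 weeks), 3 of 10 members were called, beside 10.1% of all genes tested (5.13% higher and 5% lower). Dbp and Bhlhe41 rose and Nampt fell, and these 3 were also the members without overlap in CPM, where 17% of all genes did not overlap. All 3 calls held in each of 13 other settings, and without library 4 of the aged group Dbp was at 2.98 (log2, edgeR adjusted p = 5.04e-05). The core clock list had 2 of 17 higher and 4 lower. Arntl fell to 2.24, 1.98, 2.56 and 1.16 CPM at 104 weeks, against 10.2, 15.9, 11 and 19.2 CPM at 16 weeks (a log2 change of -2.82 ± 0.28, edgeR adjusted p = 2.43e-07). Nr1d1, the Rev-erb alpha gene, stood at 49.1, 53.1, 63 and 45.3 CPM, against 6.44, 2.66, 4.07 and 2.33 CPM (a log2 change of 3.75 ± 0.40, edgeR adjusted p = 1.85e-06). Cry1 fell by 1.94 on the log2 scale (edgeR adjusted p = 1.38e-07), so Dbp and Nr1d1 were high in the livers in which Arntl and Cry1 were low. Of the PAR bZIP targets 0 rose and 5 fell, with Cyp2b10 at -3.12 ± 0.48 (edgeR adjusted p = 0.000196) and Nr1i3, which encodes the xenobiotic receptor CAR, at -1.35 ± 0.25 (edgeR adjusted p = 0.000973). Gsta1 and Gsta2 were again among those called, with near-equal levels of 56.8 ± 13.5 and 55.8 ± 13.5 CPM at 104 weeks. As they can share reads, they may not be separate calls. Of the NAD genes only Nmrk1, a nicotinamide riboside kinase gene, was called, at -1.05 ± 0.22 (edgeR adjusted p = 0.00278), and DESeq2 called 2. In the systemic list the metallothionein gene Mt1 was the 1 call, at 4.08 ± 1.22 (edgeR adjusted p = 0.0397). Other rhythmic genes rose in 3 and fell in 4 of 20 cases, with the transferrin receptor gene Tfrc at -1.22 ± 0.27 (edgeR adjusted p = 0.0046) and the vasopressin receptor gene Avpr1a at 1.45 ± 0.36 (edgeR adjusted p = 0.0118). Markers of B and plasma cells summed to 13.9 to 17.9 CPM at 104 weeks and 0.865 to 2.53 CPM at 16 weeks, where 2 of the 6 passed the filter and both were called higher. Of the 6, 1 or 2 were at 0 in each library of 104 weeks and 1 to 4 in each of 16 weeks. Macrophage markers had 2 of 9 higher, at 128 to 231 CPM against 95.6 to 139 CPM. Neutrophil markers had 2 of 3 tested higher, with overlapping sums of 8.07 to 11 CPM and 7.98 to 10.6 CPM. Hepatocyte markers had 2 of 7 higher and stellate markers 1 of 6 lower. Summed hepatocyte levels were split at 104 weeks, at 123000, 140000, 79800 and 86700 CPM, against 104000 to 121000 CPM at 16 weeks. Alb alone took 3.77% to 5.88% of all counts at 104 weeks and 6.42% to 7.72% at 16 weeks. The part of these markers in the members' values was not tested.

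With age in the mutant (16 against 7 weeks), 2 of 10 members were called, both lower, Nampt and Rgs16, beside 0.686% of all genes tested (0.355% higher and 0.331% lower). CPM did not overlap for 4 members, Dbp, Tef, Nampt and Rgs16, all lower at 16 weeks, where 12.4% of all genes did not overlap. Both calls held in each of 13 other settings. Dbp went the other way to the aged wild type, at 11 ± 2.49 CPM in 16-week and 20.5 ± 2.39 CPM in 7-week mutants (a log2 change of -0.90 ± 0.37, edgeR adjusted p = 0.383), without passing the threshold. Of the core clock genes edgeR called 0, with 3 at an unadjusted p under 0.05, and DESeq2 called 0. Among PAR bZIP targets 1 fell, Ces2a, at -0.79 ± 0.16 (edgeR adjusted p = 0.0136), and among other rhythmic genes 1 rose, Avpr1a, at 1.63 ± 0.36 (edgeR adjusted p = 0.0361). Calls were 0 in the NAD list (1 at an unadjusted p under 0.05, and 1 by DESeq2) and 0 in the systemic list (3 and 0).

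The age effects differed between genotypes for 2 of 10 members, beside 3.05% of all genes tested (1.8% above 0 and 1.25% below). The interaction, mutant change minus wild-type change, was -4.10 ± 0.54 for Dbp (log2, edgeR adjusted p = 9.81e-05), and held in all 21 other settings. For Rgs16 it was -2.51 ± 0.63 (edgeR adjusted p = 0.0324), which held in 8 of 21 other settings, with edgeR or DESeq2 adjusted p from 0.00118 to 0.0789. It was lost in single-library omissions from all 4 groups, and was -1.94 without library 1 of the 7-week mutants. The mutants span 7 to 16 weeks and the wild type 16 to 104 weeks, so genotype and the ages compared cannot be told apart here. Of the core clock genes 4 had a called interaction, with Arntl at 3.47 ± 0.37 (edgeR adjusted p = 3.73e-06), Nr1d1 at -4.41 ± 0.55 and Cry1 at 1.98 ± 0.25 (edgeR adjusted p = 4.29e-05 for both). PAR bZIP targets were called in 2 cases, Ces2e at 0.72 ± 0.17 (edgeR adjusted p = 0.0193) and Ces2a at -0.92 ± 0.22 (edgeR adjusted p = 0.0202). Other rhythmic genes were called in 2, Klf10 at -1.41 ± 0.30 (edgeR adjusted p = 0.00877) and Dtx4 at 1.43 ± 0.36 (edgeR adjusted p = 0.0268). In the NAD and the systemic list edgeR called 0 each, with 1 each at an unadjusted p under 0.05, and DESeq2 called 0 and 1.

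Between restricted and freely fed wild-type livers 2 of 10 members were called, beside 13.6% of all genes tested (6.3% higher and 7.3% lower). Under restriction Bhlhe40 was higher and Dbp lower. CPM did not overlap for 3 members, these 2 and Rgs16, where 17.2% of all genes did not overlap. Both calls held in each of 14 other settings, and 5 members were called when library 2 of the restricted wild type was left out. The median log2 fold change of members was -0.49, and 0.04 over all genes. The core clock list moved in 8 of 17 cases, 4 higher and 4 lower. Arntl stood at 24.9, 24.5, 36.5 and 42.7 CPM, against 10.2, 15.9, 11 and 19.2 CPM on free feeding (a log2 change of 1.19 ± 0.24, edgeR adjusted p = 0.00143). Nr1d1 stood at 0.332, 2.72, 1.09 and 0.95 CPM, against 6.44, 2.66, 4.07 and 2.33 CPM (a log2 change of -1.68 ± 0.45, edgeR adjusted p = 0.0152), and Cry1 was higher by 0.66 ± 0.17 (edgeR adjusted p = 0.0129). Dbp was thus low where Arntl was high, the reverse of the aged livers. Of the PAR bZIP targets 4 rose and 1 fell, with Ces2e at -0.78 ± 0.12 (edgeR adjusted p = 0.00012) and Cyp2a4, which can share reads with Cyp2a5, at 1.20 ± 0.27 (edgeR adjusted p = 0.00437). In the NAD list Qprt fell (-0.83 ± 0.19, edgeR adjusted p = 0.00543). In the systemic list Rbm3 rose (0.65 ± 0.17, edgeR adjusted p = 0.0106) and Pck1, of gluconeogenesis, fell (-1.87 ± 0.54, edgeR adjusted p = 0.0264). Other rhythmic genes rose in 5 and fell in 3 of 20 cases, with the fatty acid elongase gene Elovl3 at -6.48 ± 0.76 (edgeR adjusted p = 1.06e-05) and Avpr1a at 2.52 ± 0.37 (edgeR adjusted p = 8.05e-05). Erythroid markers were lower in 3 of 5 tested, with summed levels of 368 to 823 CPM under restriction and 1260 to 2290 CPM on free feeding and Slc4a1 at 0 under restriction. Hepatocyte markers had 1 of 7 higher and 1 lower, and stellate markers 1 of 6 higher and 2 lower. Summed hepatocyte levels did not overlap, at 122000 to 162000 CPM under restriction and 104000 to 121000 CPM on free feeding. Of 9 macrophage markers 1 was higher, and of 5 cholangiocyte markers 1. The part of these markers in the members' values was not tested.

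Restriction in the mutant gave 0 called members of 10 by edgeR, with 4 at an unadjusted p under 0.05 and 1 called by DESeq2, beside 11.2% of all genes tested (4.91% higher and 6.33% lower). CPM did not overlap for 2, Dbp and Nfil3, both lower, where 17.3% of all genes did not overlap. The median log2 fold change of members was -0.01, against 0 over all genes. Of the core clock genes 1 rose and 1 fell. Npas2, which encodes a partner of BMAL1, had 0.583, 2.68, 3.38 and 0.453 CPM under restriction and 0.189, 0.057, 0 and 0.0635 CPM on free feeding, where it was close to undetected (a log2 change of 4.37 ± 1.19, edgeR adjusted p = 0.0185). Nr1d1 stood at 3.15, 1.82, 1.05 and 1.04 CPM under restriction and 7.05, 3.59, 3.28 and 4.83 CPM on free feeding (-1.40 ± 0.42, edgeR adjusted p = 0.033). Of the PAR bZIP targets 3 rose and 0 fell, with Cyp2b10 at 25 ± 15.9 CPM, against 0.489 ± 0.217 CPM (a log2 change of 5.65 ± 0.58, edgeR adjusted p = 7.38e-07), and Cyp2c37 at 0.99 ± 0.20 (edgeR adjusted p = 0.00123). Of the NAD genes edgeR called 0, with 3 at an unadjusted p under 0.05 and 1 by DESeq2. Rbm3 rose (0.70 ± 0.16, edgeR adjusted p = 0.00533) and Pck1 fell (-1.79 ± 0.54, edgeR adjusted p = 0.0371) in the systemic list, and Elovl3 (-6.61 ± 0.76, edgeR adjusted p = 4.9e-06) and Slc16a12 (-0.91 ± 0.25, edgeR adjusted p = 0.0162) fell among other rhythmic genes, of which 1 rose and 2 fell. Of 7 hepatocyte markers 1 was higher and 3 were lower, with summed levels of 89200 to 118000 CPM under restriction and 84800 to 107000 CPM on free feeding. Endothelial markers were higher in 2 of 6 cases, at 96 to 133 CPM and 75.1 to 101 CPM summed, with none at 0. The 1 tested of 6 T and NK cell markers was lower, with sums of 0.642 to 0.992 CPM and 1.2 to 2.58 CPM and Cd3e at 0 in all freely fed libraries. Of 9 macrophage markers 1 was higher, and of 5 tested erythroid markers 1 was lower. The part of these markers in the members' values was not tested.

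The effect of restriction was not shown to differ between genotypes for any member. The interaction gave 0 of 10 by edgeR and 0 by DESeq2, with 3 at an unadjusted p under 0.05, beside 1.5% of all genes tested (0.906% above 0 and 0.591% below). The median interaction was 0.71 on the log2 scale over members and -0.04 over all genes, and the members were not tested as a set. The smallest p-values were those of Ciart at 1.99 ± 0.71 (log2, 95% interval 0.49 to 3.48, edgeR adjusted p = 0.195) and Bhlhe40 at -0.80 ± 0.27 (95% interval -1.37 to -0.22, edgeR adjusted p = 0.162). Without library 1 of the restricted mutant, Ciart was at 1.33 (log2, edgeR adjusted p = 0.355). Called core clock genes were 0 as well by both tools, with 3 at an unadjusted p under 0.05. Cyp2b10 was the PAR bZIP target called, at 3.80 ± 0.72 (edgeR adjusted p = 0.00675), and Avpr1a the other rhythmic gene, at -2.17 ± 0.50 (edgeR adjusted p = 0.0279). Calls were 0 by edgeR and 0 by DESeq2 in the NAD list, with 2 at an unadjusted p under 0.05, and 0, 0 and 0 in the systemic list.

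**Figure D3:**
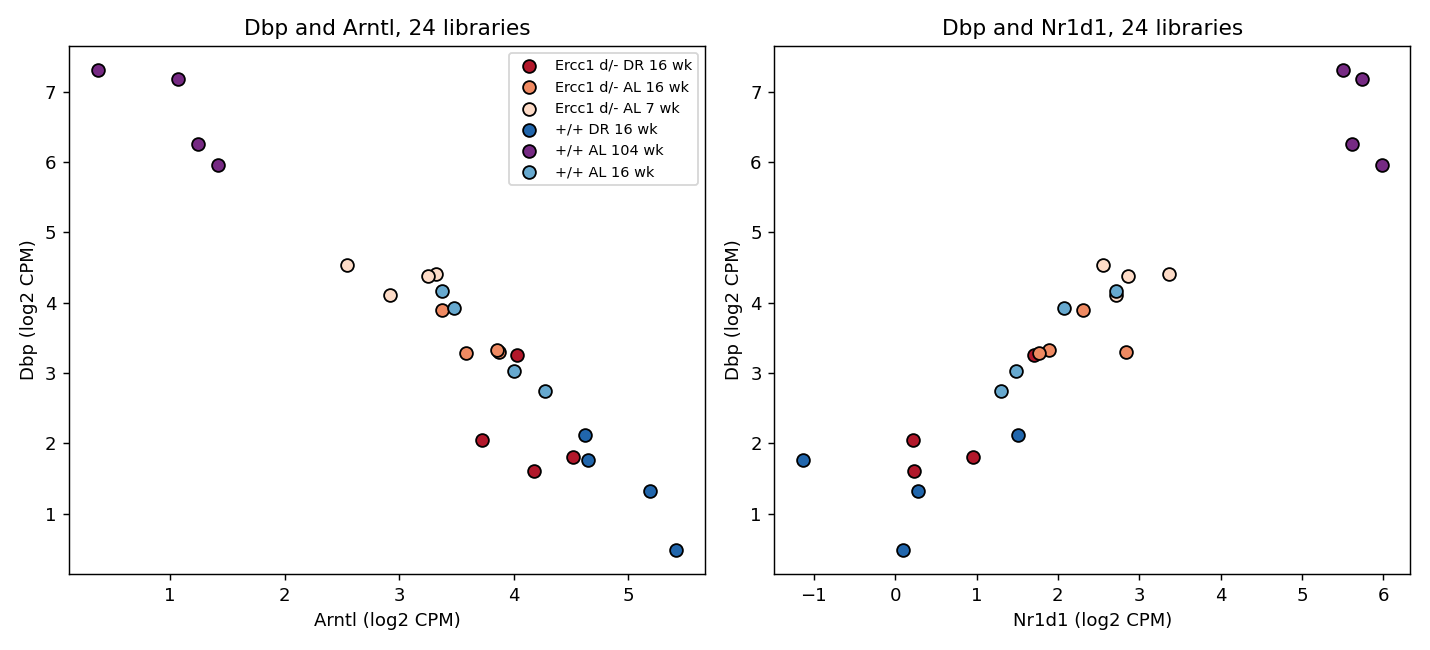
Dbp against Arntl and against Nr1d1 on log2 CPM axes (prior count 2), 1 point per library, coloured by group. The 4 aged wild-type libraries lie at one end with high Dbp and Nr1d1 and low Arntl. The restricted wild-type libraries lie at the other end for Arntl, at 24.5 to 42.7 CPM, and on the Nr1d1 axis mix with restricted mutants and freely fed wild-type libraries.

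Across the 24 libraries Dbp ran against Arntl and with Nr1d1. On log2 CPM, the Pearson correlation of Dbp was -0.965 with Arntl and 0.945 with Nr1d1. After each group's mean was taken off, it was -0.720 and 0.429. The aged libraries stand apart, and without them, a choice made after seeing the data, the values over 20 libraries were -0.916 with Arntl and 0.883 with Nr1d1. The libraries share groups and composition, so the values are descriptions with no test. Within groups Dbp also varied with Nampt (0.770), Ciart (0.718), Tef (0.656) and Usp2 (0.641), although over all libraries the value with Nampt was -0.176 (the aged livers had low Nampt and high Dbp). Ciart and Usp2 had 0.775 within groups, and Rgs16 stayed between -0.226 and 0.376 with all other members. Nfil3 did not follow Arntl, at -0.012 over all libraries and 0.183 within groups. The genes outside the members whose pattern over 24 libraries was most like that of Dbp were Nr1d1 (0.945), Irf5 (0.891), Sec11c (0.883), Srpr (0.874) and Narf (0.868). Within groups these values were lower, at 0.429 for Nr1d1, 0.204 for Irf5, 0.480 for Sec11c, 0.228 for Srpr and -0.069 for Narf. For Nfil3 they were Cdc123 (0.839), Crp (0.783), Atp6ap1 (0.762), Ankra2 (0.760) and Lactb (0.746), with 0.509 to 0.782 within groups.

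**Figure D4:**
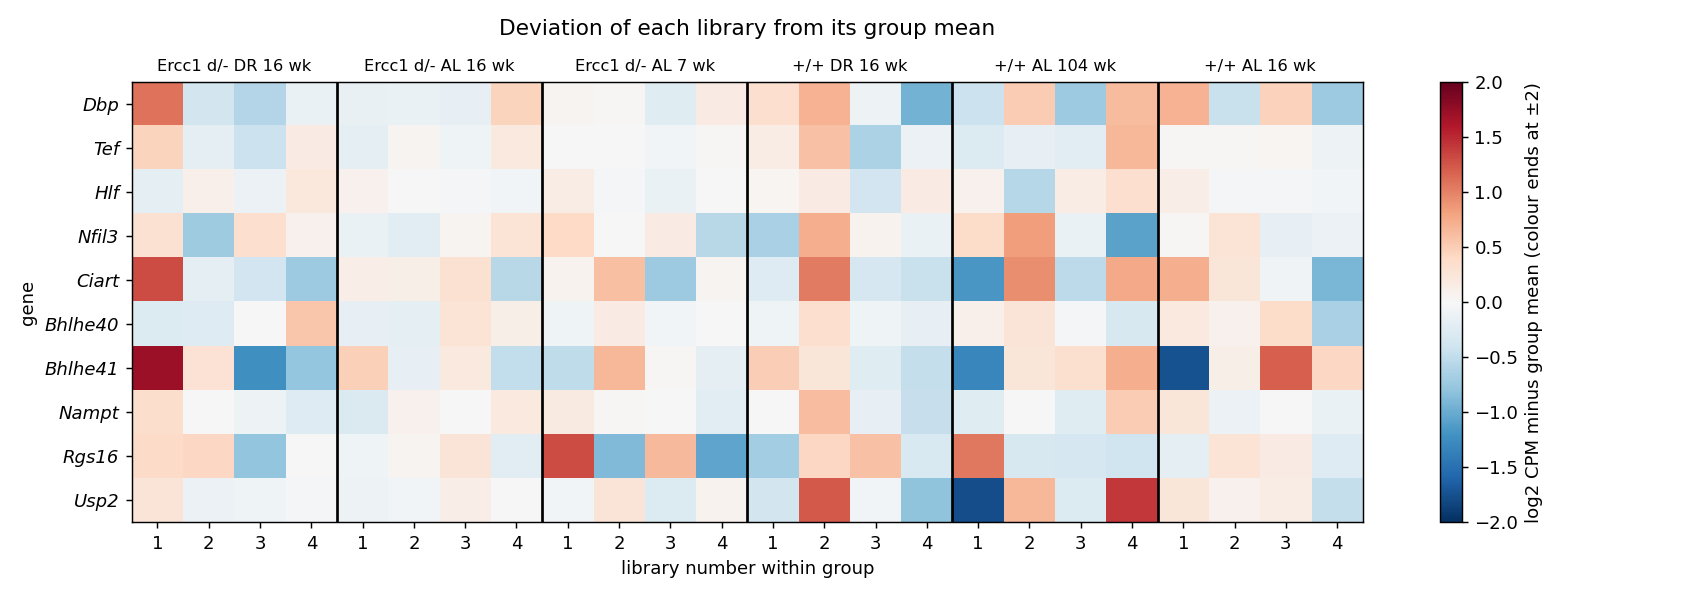
Deviation of each member from its group mean (log2 CPM) in every library, by colour. Library 2 of the restricted wild type is highest of its group in 8 of 10 members and library 4 of the freely fed wild type at 16 weeks lowest in 8.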

How the data were processed

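The data are 24 liver RNA-seq libraries, 4 in each of 6 groups. The authors deposited raw, unscaled counts per gene. The submitters' processing notes name GRCm38.p6, STAR 2.7.0f, Trimmomatic 0.39, and Subread 1.6.4 with featureCounts. For the annotation release, strand setting and multi-mapped reads the answer is "not given in the sources used here", so genes that overlap or have close copies may share reads. Identifiers were matched to GENCODE M21 for positions.

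In R 4.3.3 with edgeR 4.0.16, filterByExpr left 12690 genes, which were scaled by TMM and fitted with a mean per group over 24 libraries (18 residual degrees of freedom, common dispersion 0.0493). Quasi-likelihood F tests with robust estimation gave 9 results, each adjusted by Benjamini-Hochberg over all genes. SE is the size of the log2 fold change over the square root of F. The steps were tested on simulated data for the wild-type age comparison alone. Of 100 genes changed by 1 on the log2 scale 71% were called, and of 100 changed by 2, 96%. Calls of unchanged genes numbered 10. A change of about 1 can thus go uncalled. Total counts of 13269792 to 20624803 and 4 libraries per group limit precision, most of all for Bhlhe41. The lowest chi-square per degree of freedom between libraries of a group was 8.6, so none was a duplicate.

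The 10 members, the gene lists and the tests were chosen with earlier results of these data known. All members are named, with up to 3 called core clock genes and up to 2 of each other list by smallest adjusted p, and 5 genes each most like Dbp and Nfil3. Results of some list genes that the rule named stay unreported, though the counts include them. Alternatives were DESeq2 1.42.0, DESeq2 size factors, no filter, fits of the compared groups alone, a replicate block and leaving out each library. Whether replicate numbers pair the samples is not stated in the labels. Between groups, deviations from the group mean correlated at a median of 0.023 for same-numbered libraries and -0.006 for others. Such values cannot exclude a shared batch or day. Motifs were searched in RefSeq promoters with Python 3.11.15.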

Additional observations from a re-analysis of the deposited data

Results flagged for a closer look

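In all, 8 sets of 4 libraries out of the 60 formed by 10 members and 6 groups had 1 library far from the others, past the 95% critical value of Dixon's test. For normal values chance flags about 1 set in 20. The sets here share libraries and the test was run on CPM without a log scale, so that rate is only nominal. In restricted mutants library 1 had the highest Dbp, at 9.45 CPM with the nearest at 4.02 CPM, and the highest Ciart, at 32.1 CPM with the nearest at 11.3 CPM. In freely fed 16-week mutants library 4 had the highest Dbp, at 14.7 CPM with the nearest at 9.91 CPM. In the restricted wild type library 2 had the highest Ciart, at 8.38 CPM with the nearest at 3.32 CPM, and the highest Bhlhe40, at 141 CPM with the nearest at 106 CPM. At 104 weeks library 4 had the highest Tef, at 68.8 CPM with the nearest at 38.7 CPM, and library 1 the highest Rgs16, at 45.4 CPM with the nearest at 17.4 CPM. In the wild type at 16 weeks library 4 had the lowest Tef, at 37.5 CPM with the nearest at 40.8 CPM.

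The effect of age differed between genotypes for Dbp, by -4.10 on the log2 scale (edgeR adjusted p = 9.81e-05), and for Rgs16, by -2.51 (edgeR adjusted p = 0.0324), where the mutant change is that of 16 against 7 weeks and the wild-type change that of 104 against 16 weeks.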

How the results depend on the processing

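Counts of genes are out of 12690 and of members out of 10, with the value under the main setting in brackets. DESeq2 called 201 genes for age in the mutant (87), 388 for the restriction by genotype interaction (190), 646 for the age by genotype interaction (387) and 1 member for restriction in the mutant (0). Fits of the compared groups alone called 2232 genes and 5 members for genotype on free feeding (1262 and 1), 949 genes and 3 members for genotype under restriction (2320 and 5), 580 genes for age in the mutant, 996 for restriction in the wild type (1726), 752 for the age by genotype interaction, and 1 member for restriction in the mutant. The age by genotype interaction called 1 member (2) with no filter and 1 with the replicate block, where Rgs16 had an edgeR adjusted p of 0.0502. Deviations of same-numbered libraries correlated between -0.239 and 0.316, and 7 of 24 libraries were closest to one of the same number.

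Without both library 2 of the restricted wild type and library 1 of the restricted mutant, chosen after seeing the data, 2 members were called for genotype under restriction (5), 5 for restriction in the wild type (2) and 2 for restriction in the mutant (0). Signs then reversed for restriction in the mutant for Bhlhe40 (0.06), Bhlhe41 (-0.59) and Usp2 (-0.07), and for the interaction for Tef (0.03) and Hlf (0.04).

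Leaving out 1 library gave 792 to 1536 genes for age in the wild type and 29 to 70 in the mutant, 1053 to 2010 genes and 2 to 5 members for restriction in the wild type, 0 to 1 members in the mutant, 3 to 4 members for genotype under restriction, 109 to 227 genes for the restriction interaction, and 228 to 506 genes and 1 to 2 members for the age interaction. Log2 values that crossed 0 ran from -0.32 to 0.14 for Dbp and -0.41 to 0.10 for Ciart (genotype, free feeding), -0.11 to 0.25 for Tef and -0.10 to 0.20 for Bhlhe40 (age, wild type), -0.46 to 0.01 for Nfil3 and -0.94 to 0.07 for Bhlhe41 (restriction, wild type), and -0.02 to 0.12 for Hlf, -0.25 to 0.06 for Bhlhe40, -0.60 to 0.70 for Bhlhe41 and -0.08 to 0.05 for Usp2 (restriction, mutant). For interactions they ran from -0.21 to 0.20 for Tef and -0.06 to 1.33 for Bhlhe41 (restriction), and -0.12 to 0.47 for Nfil3, -0.15 to 0.14 for Nampt and -0.02 to 0.88 for Usp2 (age). Reversals numbered 32 in all, 27 on leaving out 1 library and 5 on leaving out both libraries named above. None was called in either fit, and the cause was not tested.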
